A study of Mus musculus with 3 samples.

Results

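The cells described here are non-dividing astrocytes from 2 single-cell libraries, 1 of astrocytes treated with MIM and 1 of untreated astrocytes. Barcodes with 200 genes or more were kept, provided that no more than 20% of their unique molecular identifiers (UMIs, counted molecules) came from mitochondrial genes. A cell was called non-dividing when it held 0 or 1 UMI summed over 8 genes of late cell division, Top2a, Cenpf, Ube2c, Birc5, Ccnb2, Hmmr, Cdca8 and Ckap2l. This left 9808 of 9818 kept untreated cells and 10504 of 14964 kept MIM-treated cells, 20312 of the 33927 kept cells of the 3 libraries in the series. The cells were thus chosen by their measured counts of those 8 genes, so the number of dividing cells in each library is a description and not a result.

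The cultures came from the cortex of C57BL/6 mice, and the age given for every library is E14.5. The untreated astrocytes were kept in DMEM-F12 with B27 and 10% serum. The MIM-treated astrocytes had been moved to a serum-free mixture of DMEM-F12 and Neurobasal with B27, N2 and FGF2 at 20 ng/mL, to which up to 6 metabolites were added (the amino acids cysteine, glycine, methionine and threonine, with putrescine and S-adenosylmethionine). They were collected no later than day 5. By the stated protocol, controls came from the batch of cells that was treated and were washed alike. The combination and the day used for this library, and whether the astrocytes were sorted from postnatal cortex or differentiated from neurospheres, were not stated. Serum, FGF2, base medium, supplements and metabolites differed between the libraries together and cannot be told apart. Cells were fixed in methanol before capture. The remaining library, of cortical neural stem cells grown as neurospheres with growth factors, is used only for side-by-side levels.

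Astrocytes are glial cells that clear glutamate and support neurons, and mature ones seldom divide. Notch signalling, which induces Hes5, is active in neural progenitors, while FGF signalling induces its own feedback genes of the Sprouty and ETS families. BMP signalling works through Smad proteins and induces Id genes, and serum is a known source of BMP activity and of signals for contractile genes. Interferons induce a set of antiviral genes through activated factors that bind the interferon-stimulated response element. One-carbon metabolism links folate, serine and glycine to the methionine cycle, which makes S-adenosylmethionine, the methyl donor of DNA and histone methylation.

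Each group was 1 library, so no difference between them has a replicate check and no p-value is given. Intervals are exact 95% intervals (Poisson for levels, conditional binomial for folds, Clopper-Pearson for shares) and cover counting error only. The non-dividing cells held 50532031 UMIs untreated and 31710100 MIM-treated, with medians of 5089 and 2839 UMIs and 1835 and 1155 genes per cell. Ribosomal protein genes took 2.87% and 7.97% of these UMIs, mitochondrial genes 1.80% and 2.25%, and Malat1 13.7% and 11.1%. The libraries shared 43 barcodes, 29 of them non-dividing in both, and leaving these out gave 313 genes higher and 492 lower by the rule below. Levels are given in CPM, each gene's UMIs summed over the cells and scaled to the total of those cells, and shares are of cells after each was thinned to 1500 UMIs, which left out 523 untreated and 1903 MIM-treated cells with fewer.

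By the rule, 10 untreated cells (0.102%, 0.0489% to 0.187%) were dividing, against 4460 MIM-treated cells (29.8%, 29.1% to 30.5%). The sum of the rule genes was 0 in 9562, 1 in 246 and 2 in 10 untreated cells. It was 0 in 8606, 1 in 1898 and 2 in 557 MIM-treated cells, so many MIM-treated cells lay close to the limit. Prc1, which bundles spindle microtubules and was not used to choose cells, stood at 22.3 CPM in MIM-treated cells with no rule UMI, at 69.5 CPM in those with 1 and at 214 CPM in those with 2. The non-dividing MIM-treated cells thus still held division transcripts. Prc1 stood at 31.0 CPM in them and at 0.792 CPM in untreated cells. Pclaf, a PCNA-binding factor of DNA replication, stood at 69.2 and 0.139 CPM. At least 2 UMIs of S phase genes were seen in 33.4% of MIM-treated and 25.0% of untreated non-dividing cells at 1500 UMIs. Free RNA from dividing cells can add such UMIs. Ccnb1, a mitotic cyclin, had a UMI in 0.326% of non-dividing and 9.45% of dividing MIM-treated cells at that depth, and the part of free RNA was not tested. The S phase list held 76 measured members, 19 higher and 3 lower (list median 0.49), and of 133 measured genes of G2 and M phase 48 were higher and 6 lower (list median 0.68). For this reason 298 genes of cell division were left out of the comparison.

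Among the 2774 remaining genes that reached 50 CPM in either library, 313 were at least 2-fold higher in MIM-treated cells on the log2 scale with 1 CPM added (11.3%), and 491 were at least 2-fold lower (17.7%). The median log2 ratio over all 2774 genes was −0.16. The lower side also held the larger differences, since 80 lower genes and 22 higher genes reached a log2 ratio of 3 in size, and 38 and 6 reached 4. The split leaned on the scaling. With TMM, which scales on the bulk of the genes, the median moved by 0.25 and the counts were 456 higher and 347 lower, so the share of higher calls went from 38.9% to 56.8%. Among the genes called, 302 of 313 higher and 456 of 491 lower were also at least 2-fold apart when all cells were compared.

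**Figure D1:**
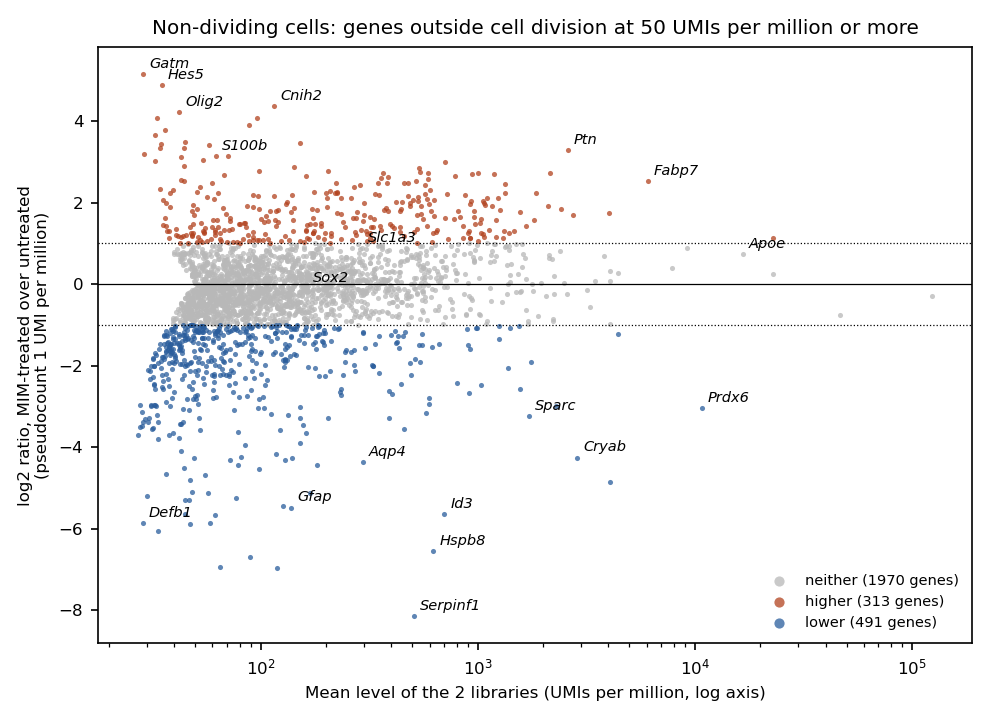
Each point is 1 of the 2774 genes outside cell division at 50 CPM or more in either library; the horizontal axis is the mean level of both libraries (log axis) and the vertical axis the log2 ratio of MIM-treated over untreated non-dividing cells. The 491 lower genes (blue) reach further from 0 than the 313 higher genes (red), down to Serpinf1 at −8.15.

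Gatm and Hes5 had the largest ratios of the 15 highest genes. Gatm, which makes the precursor of creatine from arginine and glycine (chr2:122594467-122611303, minus strand), stood at 0.633 CPM (0.433 to 0.894) in untreated and 57.0 CPM (54.4 to 59.6) in MIM-treated cells, an 89.9-fold difference (63.5 to 132). Hes5, a repressor induced by Notch (chr4:154960923-154962371, plus strand), stood at 1.39 CPM (1.08 to 1.75) and 68.7 CPM (65.9 to 71.7), 49.6-fold apart (39.1 to 63.9). Both were close to absent from untreated cells. Their levels in non-dividing neural stem cells were 33.9 CPM for Gatm and 190.4 CPM for Hes5. Other transcription factors were among the 15. Olig2 (chr16:91225457-91228677, plus strand) stood at 3.36 CPM (2.88 to 3.91) untreated and 80.5 CPM (77.4 to 83.7) MIM-treated, 23.9-fold apart (20.5 to 28.1). Sox8, a SoxE factor, was 11.6-fold higher (10.6 to 12.9), and Etv1, an ETS factor that FGF signalling induces, was 12.8-fold higher (11.3 to 14.7).

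The other genes of this group encode membrane, secreted and signalling proteins. Cnih2, an auxiliary subunit of AMPA-type glutamate receptors (chr19:5092868-5098521, minus strand), stood at 9.84 CPM (8.99 to 10.7) untreated and 222 CPM (217 to 227) MIM-treated, 22.6-fold apart (20.6 to 24.8). Its level in neural stem cells was 34.4 CPM. Ptn, the secreted growth factor pleiotrophin (chr6:36714929-36810220, minus strand), stood at 482 CPM (476 to 488) and 4716 CPM (4692 to 4740), 9.78-fold apart (9.65 to 9.92). Ptn alone among the 15 was above 50 CPM in both libraries. Igfbp4, which binds insulin-like growth factors, was 18.4-fold higher (16.8 to 20.2), and Lyn, a Src-family kinase, was 22.1-fold higher (18.7 to 26.4). Traf4, a signalling adaptor, was 16.3-fold higher (14.8 to 17.8), Cldn10, a tight junction protein, was 16.8-fold higher (14.6 to 19.5), and Smoc1, a secreted calcium-binding protein, was 15.6-fold higher (13.5 to 18.2). Mest, an imprinted gene, was 12.6-fold higher (11.3 to 14.2), and Svil, an actin-binding protein, was 11.9-fold higher (10.5 to 13.6).

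The 15 genes with the largest ratio in the other direction included secreted, matrix and stress proteins. Serpinf1, a secreted serpin known as PEDF (chr11:75409769-75422701, minus strand), stood at 1015 CPM (1006 to 1024) in untreated and 2.59 CPM (2.06 to 3.21) in MIM-treated cells, 393-fold apart (316 to 494). Ass1, which makes argininosuccinate on the way from citrulline to arginine (chr2:31470207-31520672, plus strand), stood at 238 CPM (234 to 242) and 0.915 CPM (0.612 to 1.31), 260-fold apart (181 to 389). Hspb8, a small heat shock protein (chr5:116408491-116422864, minus strand), stood at 1239 CPM (1229 to 1249) and 12.2 CPM, 102-fold apart (92.1 to 113). All 3 went from abundant to nearly absent. Id3, an inhibitor of bHLH factors and a BMP target (chr4:136143497-136145755, plus strand), stood at 1378 CPM (1368 to 1388) and 26.5 CPM (24.7 to 28.3), 52.0-fold apart (48.6 to 55.7). Gfap, the intermediate filament protein that marks astrocytes (chr11:102887336-102900912, minus strand), stood at 272 CPM (267 to 276) and 5.11 CPM (4.35 to 5.96), 53.1-fold apart (45.5 to 62.4).

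Several of these genes were at or near 0 in MIM-treated cells. Defb1, an antimicrobial defensin (chr8:21776599-21795185, plus strand), stood at 57.3 CPM (55.2 to 59.4) untreated with 0 UMIs MIM-treated, which against a floor of 3 UMIs in the library is at least 605-fold lower. Wisp2, a matricellular protein, had 3415 UMIs untreated and 1 UMI MIM-treated (2143-fold, 384 to 84668), and Elobl had 6574 and 2 (2063-fold, 571 to 17036). Reads of Elobl may be split with those of its near copy Elob, so its values are uncertain. Of the remaining genes, Lbp, which binds bacterial lipopolysaccharide, was 247-fold lower (164 to 389), and Cidea, a lipid droplet protein, was 156-fold lower (100.1 to 260). Pth1r, the parathyroid hormone receptor, was 114-fold lower (81.0 to 168), and Cnmd, chondromodulin, was 109-fold lower (74.1 to 167). Omd, a small leucine-rich matrix proteoglycan, was 85.5-fold lower (63.8 to 117), Pcp4, a calmodulin regulator, was 66.7-fold lower (49.6 to 91.9), and Tagln, which binds actin in smooth muscle, was 52.7-fold lower (44.9 to 62.3). All 30 genes kept at least a 2-fold difference in the same direction under each of 12 alternatives in scaling, pseudocount and choice of cells. They were chosen for the largest ratios in the same counts, so this outcome was nearly fixed by the choice.

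**Figure D2:**
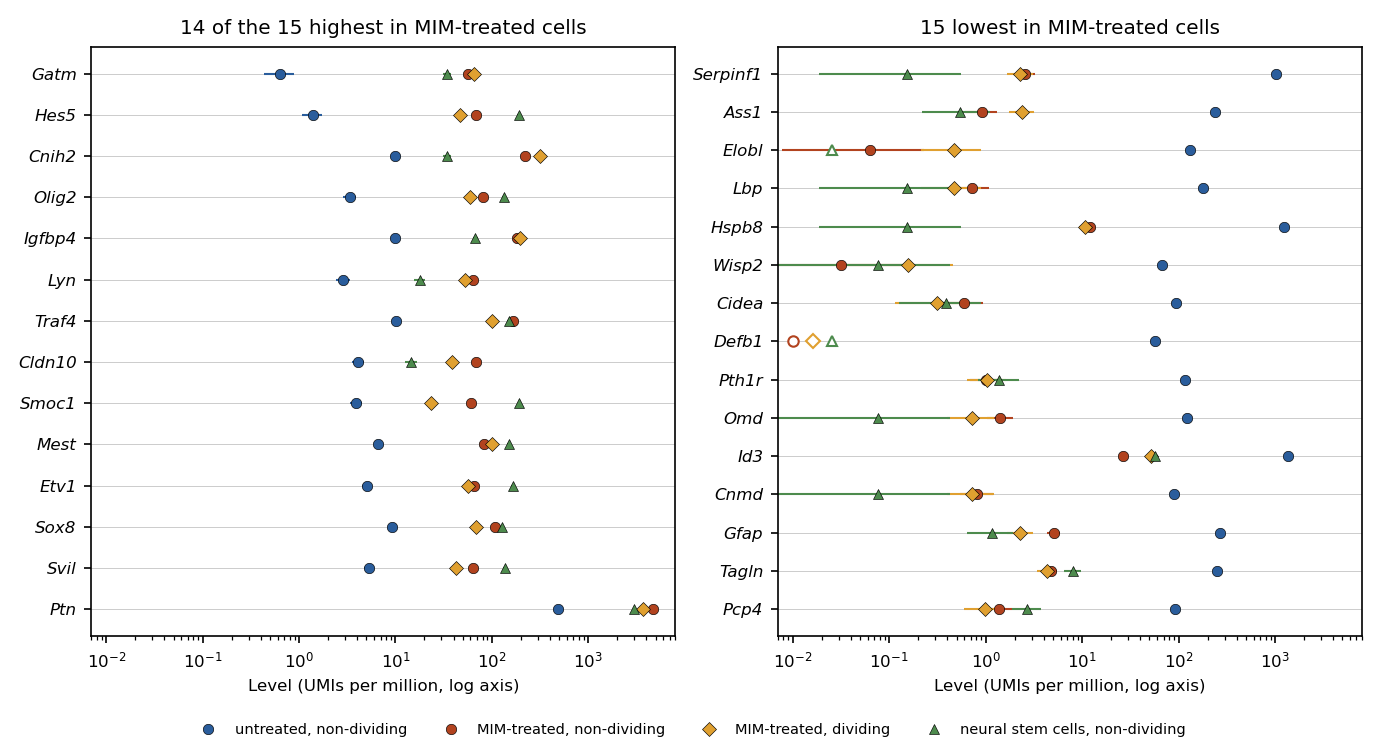
Levels in CPM (log axis) of 14 of the 15 genes with the largest ratio upwards and of the 15 downwards, with exact 95% Poisson intervals as lines; open symbols at the left edge, set apart for view, are genes with 0 UMIs. In the left panel both groups of MIM-treated cells lie to the right of the untreated cells, as for Gatm at 57.0 and 0.633, and differ from each other for Smoc1, at 61.2 and 23.2; in the right panel the untreated cells stand alone at the right, as for Serpinf1 at 1015 and 2.59.

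In single cells, the shares with a UMI differed in the same direction as the levels for the 15 highest and 15 lowest genes. A low share cannot tell sparse sampling of all cells from transcripts in only part of them. After thinning, a Gatm UMI was seen in 8.42% of MIM-treated and 0.0969% of untreated cells (14.8% and 0.316% before thinning), and a Hes5 UMI in 8.84% and 0.194% (13.9% and 0.653%). A Ptn UMI was seen in 99.6% of MIM-treated and 41.6% of untreated cells (97.8% and 70.8%). In the other direction, an Hspb8 UMI was seen in 76.4% of untreated and 1.67% of MIM-treated cells (93.9% and 3.51%), and a Gfap UMI in 24.1% and 0.639% (46.4% and 1.33%). Neither library holds a cell type known to lack these genes, so the share that free RNA gives could not be measured for them. The MIM-treated median was 3 of the 15 highest genes per cell (10th to 90th percentile 1 to 4) and 0 of the 15 lowest. The untreated median was 0 of the highest and 4 of the lowest (2 to 6). More of the highest than of the lowest genes were seen in 8484 of 8601 MIM-treated cells (98.6%) and in 60 of 9285 untreated cells (0.646%). The reverse held in 1 MIM-treated cell (0.0116%) and in 96.5% of untreated cells. Without Ptn and Id3, the gene with the most UMIs in each group, the first pair of shares was 83.6% and 0.442%, and the second was 0.709% and 96.6%. The 2 populations barely overlapped in this count, which describes the genes by which it was built.

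**Figure D3:**
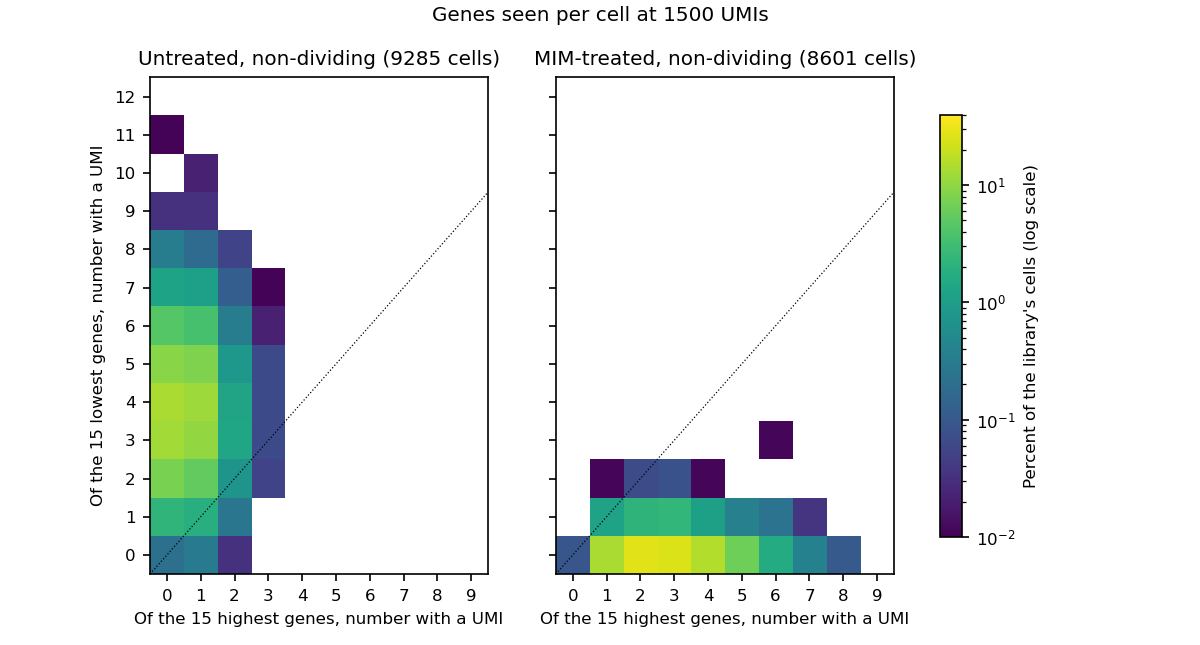
Number of the 15 highest genes (horizontal axis) and of the 15 lowest genes (vertical axis) with a UMI in each non-dividing cell thinned to 1500 UMIs; colour is the percent of the library's cells on a log scale and the dotted line marks equal numbers. Untreated cells fill the region above the line and MIM-treated cells the region below it, with 1 MIM-treated cell above.

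The shares seen were set beside the shares expected from an even spread. If each gene's UMIs had fallen at random on cells of equal depth, a Gatm UMI would have been seen in 8.68% of MIM-treated cells, close to the 8.42% seen. The 15 highest genes were seen in 87.1% to 99.6% of the cells expected from an even spread in the MIM-treated library. For the 15 lowest genes in the untreated library this ran from 29.0% (Elobl) to 94.99% (Omd). This ratio depends on a gene's level. At a low level most cells that hold the gene hold few of its UMIs, even where only part of the cells express it. For a gene seen in nearly all cells, such as Ptn, it is close to its ceiling. It therefore cannot show whether the highest genes were evenly spread, or compare them with the lowest genes. Elobl was seen in 5.16% of untreated cells against 17.8% with an even spread (8.87% before thinning), and the cells that held it had 3.80 UMIs on average. Tagln was seen in 15.4% against 29.0% (29.5% before thinning), Gfap in 24.1% against 34.8%, and Serpinf1 in 57.0% against 76.5% (77.0% before thinning). Untreated cells were thus uneven for these 4 genes, and a lower level in the MIM-treated library may count fewer cells with the transcript or fewer transcripts per cell.

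**Figure D4:**
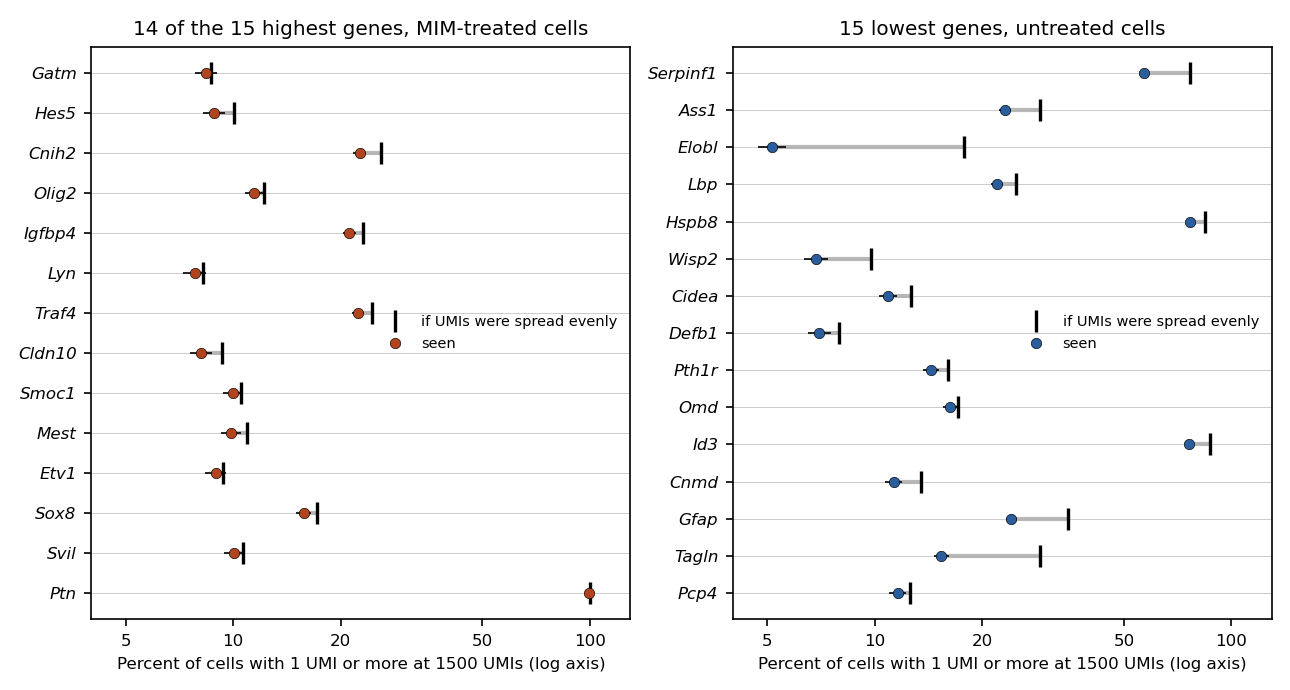
Percent of cells with 1 UMI or more at 1500 UMIs (log axis) for 14 of the 15 highest genes in MIM-treated cells and the 15 lowest genes in untreated cells; circles are the shares seen with exact 95% intervals, and bars the share if each gene's UMIs were spread evenly. Circles lie near the bars on the left and fall short of them on the right for Elobl, at 5.16% against 17.8%, and for Tagln, at 15.4% against 29.0%.

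Gene lists were read against all 13358 genes outside division with at least 20 UMIs over both libraries (called measured here), of which 6.04% were at least 2-fold higher and 15.9% at least 2-fold lower, with a median log2 ratio of −0.25. Of 18 measured genes of the FGF and MAPK feedback list, 8 were higher and 2 lower (list median 0.87). Spry2, a Sprouty inhibitor of receptor tyrosine kinase signalling, stood at 51.6 CPM (49.6 to 53.6) untreated and 359 CPM (352 to 366) MIM-treated, 6.96-fold apart. Etv4 and Etv5, ETS factors like Etv1, stood at 0.732 and 2.12 CPM untreated and at 11.8 and 9.15 CPM MIM-treated. The ligand Fgf2 was lower, at 9.56 and 1.64 CPM, although FGF2 protein was part of the medium. Fgfr1 and Fgfr2, the receptors on the list, stood at 24.8 and 10.6 CPM untreated and at 16.6 and 4.82 CPM MIM-treated.

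Of 17 measured neural progenitor genes, 7 were higher and 3 lower (list median 0.49), so the list did not move as 1 group. Fabp7, a fatty acid binding protein of radial glia, stood at 1793 CPM untreated and 10324 CPM MIM-treated, 5.76-fold apart (5.71 to 5.80). Egfr, the epidermal growth factor receptor, stood at 4.97 and 53.4 CPM. Dll1, a Notch ligand, stood at 0.297 and 9.11 CPM, while its receptor Notch1 stood at 13.5 and 18.2 CPM. Relatives of Hes5 did not follow it, with Hes1 at 16.4 and 23.5 CPM and Hey1, counted in the BMP and Id list, at 80.7 and 10.5 CPM. Notch activity was not tested. Sox2, a factor of neural stem cells that astrocytes keep, stood at 168 CPM (164 to 171) and 157 CPM (152 to 161). Nes, the progenitor filament protein nestin, stood at 62.6 and 45.9 CPM, and Vim, vimentin, was 5.94-fold lower, at 2690 and 453 CPM. Egfr and Dll1 were among the higher members, and the filament genes were level or lower.

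Of 13 measured genes of the oligodendrocyte lineage, 8 were higher and 1 lower (list median 1.95), but only 4 of the 13 reached 50 CPM, and the median was 0.36 with a pseudocount of 10 CPM. Olig1, the partner of Olig2, stood at 107 CPM (104 to 109) untreated and 668 CPM (659 to 677) MIM-treated. Lhfpl3, a marker of oligodendrocyte precursors, stood at 1.90 and 42.2 CPM. Omg, Bcas1, Myt1 and Gpr17, genes of later precursors and oligodendrocytes, were also higher, at 0.119, 0.119, 0 and 0 CPM untreated and 7.32, 4.32, 2.87 and 1.61 CPM MIM-treated. Pdgfra stood at 0.158 and 1.10 CPM, Cspg4 at 0.693 and 1.42 CPM and Sox10 at 0 and 0.0946 CPM. The myelin gene Mbp stood at 0.277 and 0.126 CPM, and Cnp, an enzyme of myelin, at 90.3 and 83.9 CPM. Higher members thus ranged from abundant factors to genes at a few CPM, and the precursor markers Pdgfra, Cspg4 and Sox10 were at most 1.42 CPM.

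Of 20 measured glutamate and GABA genes, 8 were higher and 1 lower (list median 0.60). Slc6a11, a GABA transporter of astrocytes, stood at 0.336 CPM untreated and 24.5 CPM MIM-treated. Grm5, a metabotropic glutamate receptor, stood at 0.693 and 27.4 CPM, and Gria2, an AMPA receptor subunit, at 30.3 and 80.1 CPM. The glutamate transporters Slc1a3 and Slc1a2 stood at 206 and 25.7 CPM untreated and 379 and 31.9 CPM MIM-treated, both under 2-fold. Of 10 measured chondroitin sulfate proteoglycan genes, 4 were higher and 1 lower. Cspg5 was 3.12-fold higher, Bcan 2.12-fold higher and Ncan 2.15-fold lower.

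The astrocyte list split in both directions. Of 22 measured genes, 6 stood higher, 4 lower and 12 in neither class. The list median of −0.05 turned positive with TMM and with totals that left out mitochondrial and ribosomal protein genes. The water channel Aqp4 stood at 566 CPM (559 to 572) untreated and 26.6 CPM (24.8 to 28.4) MIM-treated, 21.3-fold apart. Sox9, a glial transcription factor, stood at 256 and 106 CPM, and Mlc1, a membrane protein of astrocyte endfeet, at 292 and 102 CPM. In the other direction, S100b, a calcium-binding protein of astrocytes, stood at 11.8 CPM (10.9 to 12.8) and 113 CPM (109 to 116). Genes of several astrocyte functions were within 2-fold. Aldh1l1, a folate enzyme that marks astrocytes, stood at 26.4 and 25.9 CPM, Gja1, a gap junction protein, at 68.5 and 62.1 CPM, Glul, glutamine synthetase, at 103 and 185 CPM and Ndrg2 at 369.9 and 398 CPM. The MIM-treated cells thus kept many astrocyte transcripts while Gfap and Aqp4 were low.

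The BMP and Id list was lower. Of 21 measured genes, 11 were lower and 0 higher (list median −1.61). All 4 Id genes, which block bHLH factors such as Olig2, were among them. Id1 stood at 328 CPM untreated and 8.42 CPM MIM-treated, Id2 at 277 and 27.5 CPM and Id4 at 203 and 21.2 CPM. Of the inhibitors that BMP signalling induces, Smad6 stood at 9.06 and 0.221 CPM, Smad7 at 12.3 and 1.10 CPM and the decoy receptor Bambi at 89.1 and 11.7 CPM. Nog, the secreted BMP antagonist noggin, stood at 152 CPM (148 to 155) and 3.03 CPM (2.45 to 3.70), 50.2-fold apart. The receptor Bmpr1a was lower, at 33.3 and 10.2 CPM, and the signal carriers Smad1 and Smad5 were within 2-fold. The ligand Bmp6 was lower, at 15.3 and 0.378 CPM, while the targets Msx1 and Msx2 did not reach 2-fold with 1 CPM added.

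Of 22 measured interferon-stimulated genes, 21 were lower and 0 higher (list median −2.18). Isg15, a ubiquitin-like antiviral protein, stood at 79.4 CPM (77.0 to 81.9) untreated and 6.43 CPM (5.58 to 7.38) MIM-treated, 12.3-fold apart (10.7 to 14.3). Ifit1 and Ifit3, which bind viral RNA or act in that complex, stood at 26.2 and 68.6 CPM untreated and at 0.410 and 7.76 CPM MIM-treated. The signalling genes were lower as well, with Irf9 at 11.7 and 1.89 CPM and Irf7 at 17.8 and 0.536 CPM. Only 4 of the 22 reached 50 CPM. The exception was Rsad2, at 2.43 and 2.40 CPM. Isg15 was clumped in untreated cells, where it was seen in 7.14% against 10.9% with an even spread (16.1% before thinning).

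The promoters of 3 of these genes are shown because they carry the element that the interferon-activated factors bind. They run from 250 bases before to 50 bases after the annotated start, 5′ to 3′ on the gene's strand, from RefSeq on GRCm38.p6. Capitals mark every match, on either strand, to a pair of GAAA runs with 2 bases of any kind between them, which reads as a pair of TTTC runs on the other strand, and overlapping matches are joined.
Isg15, chr4:156200769-156201068, minus strand: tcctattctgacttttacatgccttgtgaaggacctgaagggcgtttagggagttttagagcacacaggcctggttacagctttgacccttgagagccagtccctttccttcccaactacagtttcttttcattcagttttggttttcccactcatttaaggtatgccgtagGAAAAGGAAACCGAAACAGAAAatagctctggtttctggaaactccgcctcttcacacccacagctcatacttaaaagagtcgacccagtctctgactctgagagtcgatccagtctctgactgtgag
Ifit1, chr19:34640639-34640938, plus strand: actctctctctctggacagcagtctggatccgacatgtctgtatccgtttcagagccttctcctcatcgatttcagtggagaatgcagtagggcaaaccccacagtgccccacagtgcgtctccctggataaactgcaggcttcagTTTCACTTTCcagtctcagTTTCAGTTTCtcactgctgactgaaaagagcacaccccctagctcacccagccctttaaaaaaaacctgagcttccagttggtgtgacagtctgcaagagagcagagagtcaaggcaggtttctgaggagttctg
Ifit3, chr19:34583279-34583578, plus strand: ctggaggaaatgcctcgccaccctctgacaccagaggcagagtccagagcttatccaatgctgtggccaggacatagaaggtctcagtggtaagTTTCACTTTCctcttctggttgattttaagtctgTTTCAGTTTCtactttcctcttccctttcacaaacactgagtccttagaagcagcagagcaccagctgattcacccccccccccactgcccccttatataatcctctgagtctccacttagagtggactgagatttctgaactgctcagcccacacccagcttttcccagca
The match was present in 3.44% of all 32851 promoters of that length in the table. Counted by gene, it was present for 3.99% of the 27025 genes with a promoter there. Among genes outside division at 50 CPM or more with a promoter there, it was present for 3.56% of 2221. The share was 4.65% of the 387 such genes called lower and 4.15% of the 241 called higher. It was present for 9 of the 18 measured interferon-stimulated genes that the table holds (50%). The list was chosen for known interferon response, so its share describes the list. A match is a description of the letters and not of binding.

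Other immune genes were lower too. Of 14 measured complement and innate defence genes, 12 were lower and 0 higher (list median −1.99). C3, the central complement protein, stood at 88.6 CPM (86.0 to 91.2) untreated and 1.29 CPM (0.928 to 1.75) MIM-treated, 68.5-fold apart (50.4 to 95.6). Lcn2, an iron-binding lipocalin of reactive astrocytes, stood at 78.4 and 6.37 CPM, and the chemokine Ccl2 at 20.3 and 0.158 CPM. Of 9 measured genes of MHC class I, 6 were lower and 0 higher. H2-D1 and H2-K1, whose reads may be split between near-identical copies, were 5.53-fold and 3.29-fold lower. Their light chain B2m stood at 310.4 and 278 CPM.

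Of 15 measured genes of contraction and the serum response, 11 were lower and 0 higher (list median −2.34). Acta2, smooth muscle actin, stood at 43.0 CPM untreated and 0.252 CPM MIM-treated, Ctgf, a target of serum and YAP signals, at 33.1 and 0.284 CPM and Thbs1, thrombospondin, at 37.4 and 0.378 CPM. Tpm1, a tropomyosin, stood at 216 and 251 CPM. Of 12 measured immediate early genes, 8 were lower and 1 higher. Junb stood at 34.6 and 1.23 CPM and Fos at 21.6 and 2.02 CPM, while Btg2 was higher at 7.4 and 21.3 CPM.

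Among 16 measured heat shock and chaperone genes, 6 were lower and 1 higher, and the small heat shock proteins led. Cryab, alpha-B crystallin, stood at 5451 CPM (5431 to 5472) untreated and 284 CPM (278 to 290.1) MIM-treated, 19.2-fold apart, and Hspb1 at 113 and 2.27 CPM, 49.6-fold apart. Other heat shock genes differed in level, with Hspa1a at 1.35 and 0.347 CPM and Dnajb1 at 18.9 and 15.4 CPM. Hspa8 stood at 1110 and 661 CPM and Hsp90aa1 at 342 and 183 CPM. Hsp90ab1 stood at 2492 and 2522 CPM, and Hspe1, a mitochondrial chaperonin, was higher at 465 and 1246 CPM. Of 20 measured extracellular matrix genes, 14 were lower and 0 higher (list median −1.54). Sparc, a secreted matrix regulator, stood at 3113 CPM (3098 to 3129) and 329 CPM (323 to 335), 9.46-fold apart. Timp2, a metalloproteinase inhibitor, stood at 709 and 72.1 CPM. Sparcl1, a relative of Sparc, went the other way within 2-fold, at 379.6 and 727 CPM.

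**Figure D5:**
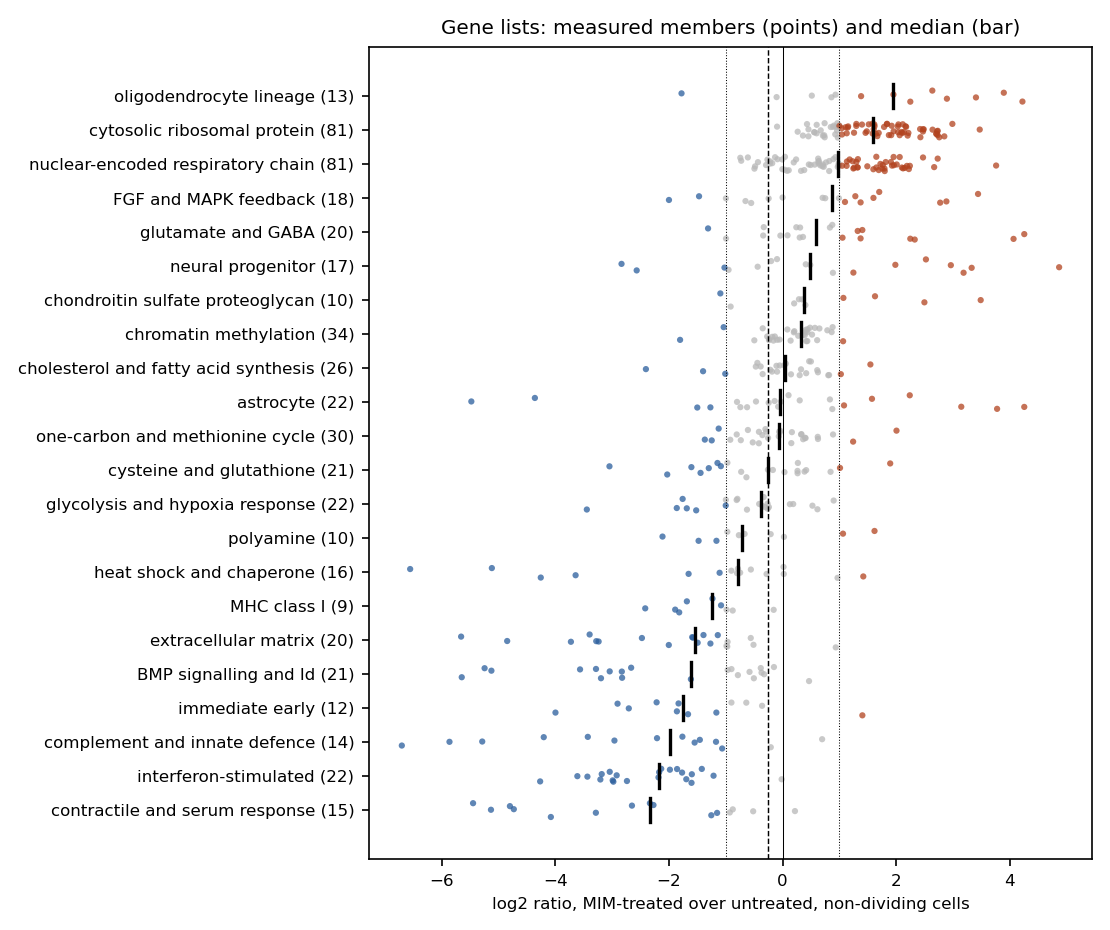
Log2 ratios (MIM-treated over untreated, non-dividing cells) of the measured members of 22 lists, with the number of measured members in brackets; bars are list medians, dotted lines mark ratios of 1 and −1, and the dashed line is the median of all measured genes, −0.25. Interferon, complement and contractile genes lie to the left, ribosomal protein and respiratory chain genes to the right, and the one-carbon list around 0.

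Of 30 measured genes of one-carbon metabolism and the methionine cycle, 2 stood higher, 3 lower and 25 in neither class. The list median of −0.06 turned positive with TMM, with totals that left out mitochondrial and ribosomal protein genes, and in all cells. Mat2a, which makes S-adenosylmethionine, stood at 63.0 CPM (60.8 to 65.2) untreated and 26.0 CPM (24.2 to 27.8) MIM-treated, 2.43-fold apart (2.25 to 2.62). Psph, the last enzyme of serine synthesis, stood at 103 CPM (100.5 to 106) and 246 CPM (240.2 to 251), 2.38-fold apart in the other direction. The enzymes before Psph in that pathway, Phgdh and Psat1, stood at 237 and 70.9 CPM untreated and 198 and 67.6 CPM MIM-treated. The glycine cleavage genes Gldc, Amt and Gcsh were all within 2-fold, and Tdh, threonine dehydrogenase, had 0 UMIs in both libraries.

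Of 10 measured polyamine genes, 2 were higher and 3 lower (list median −0.72). Sms, spermine synthase, was 3.13-fold higher, while Odc1, which makes putrescine, stood at 36.7 and 15.8 CPM and Azin1, its regulator, at 47.0 and 10.1 CPM. Of 21 measured cysteine and glutathione genes, 2 were higher and 7 lower (list median −0.26). Prdx6, a peroxiredoxin, stood at 19210 CPM untreated and 2323 CPM MIM-treated, 8.27-fold lower. Slc3a2, the heavy chain of several amino acid transporters, stood at 267 and 64.5 CPM, and Slc7a11, its cystine-carrying partner, at 0.871 and 5.96 CPM. Genes induced by ATF4 on amino acid shortage did not move as a group, with 1 higher and 3 lower of 22 and a list median of −0.01, which was 0.45 in all cells. Of 34 measured chromatin methylation genes, 1 was higher, 2 were lower and 31 were neither. Ezh2, a histone methyltransferase, stood at 15.8 and 28.0 CPM in non-dividing cells and at 166 CPM in dividing MIM-treated cells.

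Of 3 metallothionein genes, 0 were called in either direction, and Mt3 stood at 6445 and 11918 CPM. Of 6 measured pluripotency genes, 3 were lower and 0 higher.

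Most lipid genes were in neither class. Of 11 measured lipid transport genes, 2 were higher, 2 lower and 7 in neither class. Clu, the secreted chaperone clusterin, stood at 4068 CPM untreated and 508 CPM MIM-treated, and Apoe, the main lipid carrier of astrocytes, at 12466 and 20788 CPM, 1.67-fold apart. Of 26 measured cholesterol and fatty acid synthesis genes, 2 were higher, 3 lower and 21 in neither class. Insig1, a sterol sensor, was 2.97-fold higher and Scd1, a fatty acid desaturase, 5.59-fold lower. Over all measured genes 6.04% were higher and 15.9% lower, so the small counts of these lipid lists do not set them apart from other genes. Of 22 measured glycolysis and hypoxia genes, 6 were lower and 0 higher, with Ldha, lactate dehydrogenase, 2.01-fold lower. Among the insulin-like growth factor genes, Igfbp2 and Igfbp4 were higher and Igf1, Igfbp3 and Igfbp5 were lower, with Igfbp5 at 82.3 and 3.85 CPM.

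Genes of ribosomes and the respiratory chain formed 97 of the 313 higher genes, 55 for cytosolic ribosomal proteins, 36 for nuclear-encoded respiratory chain subunits, 4 for mitochondrial ribosomal proteins and 2 of mitochondrial DNA. Of 81 measured cytosolic ribosomal protein genes, 56 were higher and 0 lower (list median 1.59), and of 81 measured respiratory chain genes, 38 were higher and 0 lower (list median 0.98). Rpl39 stood at 157 CPM (153 to 160.1) untreated and 1252 CPM (1239 to 1264) MIM-treated, and Cox7c, a subunit of cytochrome c oxidase, at 563 CPM (556 to 569) and 3742 CPM (3721 to 3764). The members were not alike, since log2 ratios of ribosomal protein genes ran from −0.10 to 3.47. Reads of ribosomal protein genes may be shared with pseudogenes. The higher genes had shorter transcripts, with a median length of 1596 bases against 2472 for lower and 2414 for all genes. Outside these families the medians were 2505 bases for higher, 2473.5 for lower and 2536 for all genes. There, 24.4% of the 213 genes of up to 1000 bases were higher, against 5.31% from 1000 to 2000 bases, 7.41% from 2000 to 4000 bases and 8.39% of longer genes, and the part of transcript length or library depth in the result was not tested. Without these families 216 genes were higher and 490 lower.

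Markers of microglia, endothelial and mural cells were low in both libraries, while lists of other cell types held genes at higher levels. Of 11 microglia genes, 0 were measured, and their summed level was 0.396 CPM untreated and 0.158 CPM MIM-treated, with C1qa, Cx3cr1 and Ptprc at 0 UMIs in both. The 7 endothelial genes summed to 1.6 and 0.757 CPM, with Cldn5 and Cdh5 at 0 UMIs. The 8 mural genes summed to 4.22 and 6.65 CPM, of which Notch3 gave 3.48 and 6.46 CPM. The 11 fibroblast and meningeal genes summed to 202 and 13.2 CPM, but Ogn alone, a matrix proteoglycan, gave 189 and 7.22 CPM, while the collagens Col1a2 and Col3a1 and the proteoglycan Lum were at 0 UMIs in both and Col1a1 stood at 2.08 and 0.0631 CPM. The 7 ependymal genes summed to 67.1 and 16.6 CPM. Of these, 4 were measured and 2 were lower, with Foxj1, a factor of ciliated cells, at 22.8 and 3.91 CPM. The 17 neuronal genes summed to 96.2 and 103 CPM, and 8 were measured, with 2 higher and 4 lower. Map2, a microtubule protein of neurons and glia, stood at 41.1 and 89.6 CPM, Stmn2 at 16.5 and 0.221 CPM, and Dcx, Neurod1, Gad2 and Slc17a7 were each under 0.1 CPM in both. The part of rare cells of these types was not tested.

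Dividing MIM-treated cells gave a second view of the same culture. Of the 313 higher genes, 29 were at least 1.5-fold higher in dividing than in non-dividing MIM-treated cells and 24 were at least 1.5-fold lower, and at 2-fold the numbers were 11 and 2. Most of the 313 thus differed by less than 1.5-fold between these groups of cells. Of the 491 lower genes, 41 were at least 1.5-fold higher in dividing cells and 82 at least 1.5-fold lower. The share over all genes is not given for any of these counts, so they do not set the called genes apart from other genes. The 11 included Selenoh, a nuclear selenoprotein, at 251 CPM in non-dividing and 1058 CPM in dividing cells, Dctpp1, a nucleotide-cleaning enzyme, at 103 and 407 CPM, and the histone chaperone Nap1l1 at 450.5 and 991 CPM. The 2 in the other direction were S100b and Smoc1. S100b stood at 115 CPM in cells with no rule UMI, 103 CPM with 1, 75.9 CPM with 2, 51.5 CPM with 3 to 5 and 42.4 CPM with 6 or more. Smoc1 stood at 62.7, 54.9, 44.3, 31.6 and 19.1 CPM over the same steps. Cnih2 went the other way, from 215 to 321 CPM. Median UMIs per cell over these steps were 2818, 2919.5, 2871, 3075.5 and 4703, so the first 4 steps had similar depth and the last was deeper.

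Leaving out dividing cells also took genes away. In all cells, 72 genes outside the division list were called higher that were not in non-dividing cells, of which 7 had a log2 ratio of at least 1 but no longer reached 50 CPM. They included Tyms, which makes thymidylate for DNA synthesis. Tyms stood at 5.03 CPM untreated, 23.2 CPM in non-dividing and 211 CPM in dividing MIM-treated cells. Of the 22 measured genes of the amino acid and ATF4 list, 6 were at least 2-fold higher in dividing than in non-dividing MIM-treated cells and 0 were lower. These counts were 6 and 0 of 34 for chromatin methylation, 4 and 0 of 30 for the one-carbon list and 0 and 4 of 13 for the oligodendrocyte lineage. No share or median over all genes is given for this ratio, so the counts and list medians only describe the lists. Psph, of the one-carbon list, stood at 406 CPM in dividing cells. For dividing over non-dividing MIM-treated cells, the list median was −0.89 for the oligodendrocyte lineage and −0.55 for glutamate and GABA genes. It was −0.65 for the astrocyte list and 0.70 for the amino acid and ATF4 list.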

How the data were processed

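Expression was measured with 10x Genomics single-cell libraries, 1 per group, without replicates. The authors deposited UMI counts for 31053 genes per library, made with Cell Ranger 3.0.2 on mm10 per the labels' protocols; the submitters' processing notes also name Seurat 3.1.1, and no use is given. Reads were not reprocessed.

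Counts were summed over non-dividing cells and divided by their total (CPM), after the filters given above. With 1 CPM added to both levels, log2 ratios were taken. A gene was called with a ratio of 1 or more in size and 50 CPM in either library; list members needed 20 UMIs over both libraries and no level. Named genes were the 15 largest ratios in each direction (leaving out genes of division, mitochondrial DNA, ribosomal proteins, haemoglobin or the sex chromosomes, and clone-like names), up to 4 members per list with the largest ratio at 50 CPM, and 11 fixed markers; other members were chosen after their values were seen. 1 gene of the 15 highest and some list members counted here are not reported by name. The cell rule, the 35 written lists and the alternatives were chosen with earlier results of these data known. Families of ribosomal and respiratory genes were found by symbol. A symbol with several gene IDs stands for the ID with the most UMIs. Thinning was without replacement (seed 1). No doublet caller was run; an alternative left out the 8% of cells with the most UMIs. Gene positions are from GENCODE vM21 (GRCm38), and promoters from RefSeq. The count rule was tested on simulated data. Software was edgeR 4.0.16 (TMM only) in R 4.3.3, and matplotlib 3.10.9, pandas 2.3.3, scipy 1.17.1 and numpy 2.4.6 in Python 3.11.15.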

Additional observations from a re-analysis of the deposited data

How the results depend on the processing

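The counts of 313 higher and 491 lower genes moved by over 1.5 times with a minimum level of 10 CPM in place of 50 CPM, to 551 and 1344. Under the other 14 alternatives both stayed within 1.5 times. TMM gave 456 and 347, with 313 and 347 genes shared. Totals without Malat1 gave 316 and 581, totals leaving out ribosomal protein and mitochondrial genes 370 and 454, and a pseudocount of 10 CPM 280 and 417. Leaving out cells with 2 or more S phase UMIs gave 329 and 494 from 2236 of 9808 untreated and 4068 of 10504 MIM-treated cells. Those UMIs were counted before thinning, so deeper cells were more easily left out, and the kept cells are not a set matched for S phase. All cells gave 373 and 506, of which 301 and 456 were shared. Leaving out the 8% of cells with the most UMIs gave 320 and 499.

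Of 100 named genes that were called, 88 stayed at least 2-fold apart under all 12 alternatives that rescale or reselect cells. Each of the 15 highest and 15 lowest genes kept the order of its cell shares at a lower and a higher common depth and with 2 UMIs required. Those genes were chosen for the largest ratios in the same counts, so this too was nearly fixed by the choice. The alternatives without shared barcodes, without ribosomal and respiratory genes, and without Ptn and Id3 were chosen after seeing the data. List medians changed sign for the astrocyte, one-carbon, ATF4 and sex-linked lists only, all within 0.1 of 0 in the main comparison. Over the alternatives these medians ran from −0.26 to 0.20 for the astrocyte list and from −0.17 to 0.12 for the one-carbon list. They ran from −0.05 to 0.45 for the ATF4 list and from −0.02 to 0.28 for the sex-linked list. A pseudocount of 10 CPM shrank lists of low genes, such as the interferon median to −1.22. No paired analysis was possible because each group is 1 library. Genes of a few CPM rest on few UMIs, and variation between cultures was not measured.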
